A study of Homo sapiens with 18 samples.

Results

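DG75 and Raji are human Burkitt lymphoma lines, B cell tumours driven by a translocated MYC gene, and they were compared here in the untreated state. DG75 carries no Epstein-Barr virus (EBV), and Raji carries EBV genomes. The comparison used 6 of the 18 bead arrays of the study, 3 of untreated DG75 and 3 of untreated Raji, chosen by their labels, with all measured genes as its content. Per the labels, cells of both lines were grown in RPMI medium with foetal bovine serum, seeded into wells on the day of the experiment and left without inhibitor for 1 h before RNA was taken. The other 12 arrays held cells of either line after 1 h with Bay-11 at 50 µM or TPCK at 75 µM, compounds known as inhibitors of NF-κB activation, and 3 arrays were hybridised for each line and compound. Whether the 3 samples of each group were separate cultures is not stated in the labels. The p-values therefore reflect only how far these samples differ, which can be technical variation. Each line stands for itself alone: with 1 line of each kind, the virus and every other difference between the lines cannot be told apart.

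EBV drives resting B cells into growth through its latency III programme, in which the viral protein EBNA2 acts on host promoters through the Notch partner RBPJ, and the viral membrane protein LMP1 acts as a constantly active CD40 receptor that switches on NF-κB. NF-κB proteins are held in the cytoplasm by inhibitors of the IκB family, and their release turns on genes for chemokines, adhesion molecules, survival proteins and the NF-κB inhibitors themselves. Burkitt lymphoma without this programme keeps the look of a dividing germinal centre B cell, the stage at which antibody genes are mutated. Viral transcripts were not analysed here.

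The lines differed widely. Of 10697 genes tested, 4163 (38.9%) differed at an adjusted p under 0.05, here called a difference, with 2214 (20.7%) higher and 1949 (18.2%) lower in DG75. All values below are log2 signals after background correction and quantile normalization, and all differences are DG75 minus Raji, with their standard error. The largest differences were losses of signal in DG75: 96 genes were called lower by more than 8-fold and 17 called higher by that much, while 254 were called lower and 179 called higher by more than 4-fold. At the other end, 3019 genes (28.2%) had a 95% confidence interval lying within 1.5-fold in either direction. With the arrays centred on their medians instead of quantile normalized, 73.6% of the calls were higher in DG75, against 53.2% under quantile normalization, and the median difference over all genes moved to 0.24 on the log2 scale, against 0.03. Each group of genes is therefore described below by its counts, to be read against the 38.9% of all genes called. Counts given with median centring have another background. Under that setting 3075 of all 10697 genes were called, 2262 higher and 813 lower in DG75, so calls of a group lean to higher there as well. Most groups also have their median given, and the text says where the direction of a group rests on the scaling. In every gene named below as higher or lower, all 3 DG75 values lay on the same side of all 3 Raji values. The 9 named genes whose groups overlapped were not called.

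Host genes of the EBV latency III programme were mostly lower in DG75. Of 39 genes listed, 35 were measured, of which 26 were lower and 2 higher, so that 80% differed, against 38.9% of all genes tested, and their median difference was -2.06. This list, like the others below, was chosen with earlier results of these data known, so its share is a description. Of the 35, 8 were detected in untreated Raji but not in untreated DG75, and 1 the reverse. Such members could pass the filter through the line where they are high. With median centring 24 were lower and 1 higher, with a median of -1.85, which lay 2.09 below the median of all genes. EBI3, a cytokine subunit named for its induction by EBV, read 4.27, 4.33 and 4.41 on the DG75 arrays, against 11.92, 11.70 and 11.87 on the Raji arrays. It was not detected on any DG75 array and was at least 111-fold lower in DG75 (adjusted p = 3.48e-11). The signal in Raji was high and even over the 3 arrays, and that in DG75 lay below the lowest detected signal of each array.

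Transcripts of surface proteins known as hallmarks of the EBV-transformed B cell were not detected in DG75. FCER2, the low-affinity IgE receptor CD23 and a classical EBNA2 target, read 4.29, 4.28 and 4.25 on the DG75 arrays, against 9.98, 9.78 and 9.75 on the Raji arrays. CR2, the complement receptor CD21 through which EBV enters B cells, read 4.29, 4.21 and 4.30 on the DG75 arrays, against 9.48, 9.65 and 9.78 on the Raji arrays. SLAMF1, a self-binding receptor of activated lymphocytes, read 4.31, 4.19 and 4.27 on the DG75 arrays, against 10.34, 10.09 and 10.13 on the Raji arrays. All 9 DG75 values lay below the lowest detected signal. FCER2 was at least 27.7-fold lower in DG75 (adjusted p = 4.53e-14), CR2 at least 24.1-fold lower (4.53e-14) and SLAMF1 at least 35.3-fold lower (2.83e-12).

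Genes of the same list that lie close to LMP1 and NF-κB signalling were lower as well, though several kept a signal in DG75. CCL22, a chemokine that draws regulatory T cells, read 4.25, 4.20 and 4.21 on the DG75 arrays, against 9.68, 9.73 and 9.57 on the Raji arrays, and was at least 24.6-fold lower. TRAF1, a signalling adaptor that LMP1 binds, read 5.89, 5.56 and 5.33 on the DG75 arrays, against 9.34, 9.42 and 9.5 on the Raji arrays, 14.2-fold lower in DG75 (-3.83 ± 0.15, adjusted p = 6.98e-12), while its other probe gave -1.18. CD58, the ligand of the T cell molecule CD2, read 6.88, 6.95 and 6.55 on the DG75 arrays, against 9.88, 9.72 and 9.93 on the Raji arrays. CD40, the receptor that LMP1 imitates, read 7.29, 7.41 and 7.55 on the DG75 arrays, against 9.83, 9.52 and 9.46 on the Raji arrays and was 4.56-fold lower. The intermediate filament gene VIM read 4.41, 4.58 and 4.59 on the DG75 arrays, against 9.27, 9.09 and 9.16 on the Raji arrays, and was at least 17.5-fold lower. Its standard error of 0.60 pools the spread of this gene within all 6 groups, and the 3 untreated arrays of each line were close together.

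Transcription factors of the list were lower as well. RUNX3, which EBNA2 induces through a distant enhancer, read 10.74, 10.74 and 10.67 on the DG75 arrays, against 12.18, 12.06 and 12.20 on the Raji arrays, 2.69-fold lower in DG75, and it was well detected in both lines. BATF, an AP-1 family factor, read 5.38, 5.63 and 5.33 on the DG75 arrays, against 8.60, 8.46 and 8.40 on the Raji arrays, 8.22-fold lower in DG75. HES1, a target shared by Notch and EBNA2, read 4.33, 4.26 and 4.20 on the DG75 arrays, against 5.13, 5.88 and 5.98 on the Raji arrays. It was not detected in DG75, near the detection limit in Raji, and at least 1.54-fold lower in DG75. MARCKS, an actin-binding protein, stood out as higher in DG75, with 9.71, 9.75 and 9.90 on the DG75 arrays, against 6.69, 6.85 and 7.69 on the Raji arrays, 6.56-fold higher in DG75, and the third Raji array lay nearest to DG75. TNFAIP2 was also called higher (0.53 ± 0.20), but it was detected on 1 DG75 array and no Raji array, and lost its call under 10 of the 17 alternative settings, among them leaving out any of 5 single arrays (adjusted p from 0.0606 to 0.219). Not called were ICAM1 (-0.63 ± 0.27, 2 DG75 arrays detected), IRF4 (0.36 ± 0.26, 2 Raji arrays detected), LSP1 (0.17 ± 0.23), BCL2A1 (0.16 ± 0.21) and RELB (-0.01 ± 0.35).

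**Figure D1:**
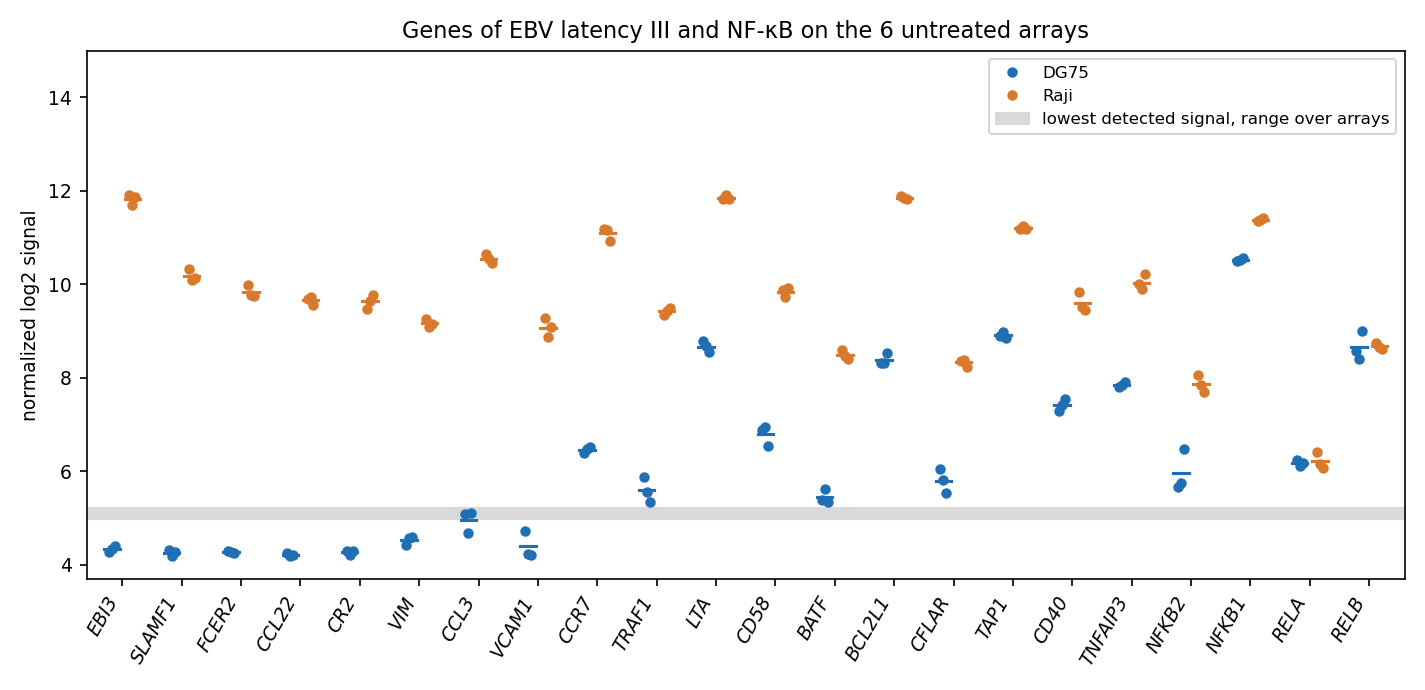
Normalized log2 signal (vertical axis) of 22 genes of EBV latency III and NF-κB on the 6 untreated arrays. Each point is an array, DG75 in blue on the left and Raji in orange on the right of each gene, the line is the mean of 3 arrays, and the grey band spans the lowest detected signal over these arrays; the first 5 genes, EBI3 to CR2, lie under the band in all 3 DG75 arrays and between 9.48 and 11.92 in Raji, while RELA and RELB overlap.

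The upstream sequence of 6 of these genes is shown because it holds letters that match the known sites of the factors the programme acts through. The patterns searched were GGANTTTCC and GGGNNTTCC for NF-κB, which may overlap each other, and GTGGGAA for RBPJ, each on both strands. The windows are the 250 bases before the start of the RefSeq gene on GRCh38.p14, read 5′ to 3′ on the strand of the gene, with matches in capitals.
EBI3 (chr19:4229273-4229522, plus strand): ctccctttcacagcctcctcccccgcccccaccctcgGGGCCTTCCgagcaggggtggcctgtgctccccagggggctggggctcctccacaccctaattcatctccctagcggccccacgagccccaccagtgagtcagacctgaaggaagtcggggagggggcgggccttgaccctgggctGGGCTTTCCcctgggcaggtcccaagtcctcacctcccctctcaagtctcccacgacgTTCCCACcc
FCER2 (chr19:7702132-7702381, minus strand): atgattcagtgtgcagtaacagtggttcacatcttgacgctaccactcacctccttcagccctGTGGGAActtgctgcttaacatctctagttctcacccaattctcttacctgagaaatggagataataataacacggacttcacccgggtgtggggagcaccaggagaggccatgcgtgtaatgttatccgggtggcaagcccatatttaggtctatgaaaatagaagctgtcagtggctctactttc
VCAM1 (chr1:100719492-100719741, plus strand): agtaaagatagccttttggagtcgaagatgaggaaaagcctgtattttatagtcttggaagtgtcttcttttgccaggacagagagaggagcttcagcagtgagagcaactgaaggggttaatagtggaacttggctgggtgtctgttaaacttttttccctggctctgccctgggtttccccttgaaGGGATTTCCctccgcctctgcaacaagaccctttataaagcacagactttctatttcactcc
CFLAR (chr2:201118466-201118715, plus strand): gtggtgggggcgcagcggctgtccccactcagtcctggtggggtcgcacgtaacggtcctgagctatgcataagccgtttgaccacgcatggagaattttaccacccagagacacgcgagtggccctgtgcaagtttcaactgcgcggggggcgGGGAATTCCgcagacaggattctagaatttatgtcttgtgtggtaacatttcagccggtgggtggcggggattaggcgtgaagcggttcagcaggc
TNFAIP3 (chr6:137867009-137867258, plus strand): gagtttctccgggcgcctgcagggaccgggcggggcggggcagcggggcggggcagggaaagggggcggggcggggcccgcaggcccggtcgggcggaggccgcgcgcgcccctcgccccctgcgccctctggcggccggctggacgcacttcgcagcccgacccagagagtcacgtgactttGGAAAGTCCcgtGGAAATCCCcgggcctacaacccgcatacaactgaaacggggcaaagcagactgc
HES1 (chr3:194135898-194136147, plus strand): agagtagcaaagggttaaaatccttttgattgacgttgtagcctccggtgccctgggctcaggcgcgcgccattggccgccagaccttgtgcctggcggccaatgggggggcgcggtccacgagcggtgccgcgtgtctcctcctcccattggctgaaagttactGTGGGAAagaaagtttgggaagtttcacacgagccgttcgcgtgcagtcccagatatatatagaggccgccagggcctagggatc
EBI3 has 2 NF-κB matches, which start 213 and 67 bases before the gene, and an RBPJ match 9 bases before it. TNFAIP3 has 2 NF-κB matches close together, 67 and 55 bases before the gene, VCAM1 has 1 at 62 bases and CFLAR has 1 at 96 bases. FCER2 and HES1 each have 1 RBPJ match, 187 and 85 bases before the gene. The 6 windows were picked for holding a match, out of 27 genes looked at, the 22 latency III genes called lower that have a window and 5 others of large difference. The other 21, among them CCL22, CR2, SLAMF1, TRAF1, BATF, VIM and LTA, had no match, which says only that these letters are not in this window.

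The share of all genes with such letters gives the scale for these matches. In the 300-base windows of RefSeq, 250 before and 50 after the start, either NF-κB pattern was present in 9.63% of 8747 tested genes, in 9.81% of those called higher in DG75 and in 10.8% of those called lower. RBPJ matches were present in 5.59% of tested genes, 5.9% of those called higher and 4.96% of those called lower. Of the latency III genes called lower, 4 of 22 with a window held an NF-κB pattern (18.2%) and 3 held the RBPJ pattern (13.6%). The pattern GAAANNGAA, known from interferon-regulated promoters, was present in 26 of 203 genes called lower by over 4-fold (12.8%), in 4 of 138 called higher by over 4-fold (2.9%) and in 6.55% of all tested genes. It was 1 of several patterns searched in these sets. In the same order, either NF-κB pattern was in 11.8% and 6.52%, and RBPJ in 6.9% and 4.35%. The EBF1 pattern CCCNNGGGA was in 11.8%, 13% and 10.3% of all, and the MYC pattern CACGTG in 6.4%, 7.97% and 10.6% of all. A match is a description of the letters and was not tested as a binding site.

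Components of the NF-κB pathway differed about as often as all genes. Of 33 measured (37 listed), 11 were lower in DG75 and 3 higher, 42.4% of them, and the median was -0.15, which turned to 0.07 with median centring, 0.17 below the median of all genes, where 7 were lower and 3 higher. Among the 5 NF-κB proteins, NFKB2, the p100 precursor of the non-canonical pathway, read 5.67, 5.76 and 6.48 on the DG75 arrays, against 8.05, 7.84 and 7.70 on the Raji arrays, 3.73-fold lower in DG75, with the third DG75 array above the other two. NFKB1, the p105 and p50 gene, read 10.50, 10.53 and 10.57 on the DG75 arrays, against 11.37, 11.37 and 11.42 on the Raji arrays, 1.81-fold lower in DG75, a call lost without normalization between arrays. REL read 6.09, 5.95 and 6.11 on the DG75 arrays, against 6.76, 6.85 and 6.74 on the Raji arrays, 1.66-fold lower in DG75, a call lost under median centring. RELA (6.24, 6.13 and 6.17 in DG75 and 6.41, 6.15 and 6.07 in Raji) and RELB (8.57, 8.41 and 9.01 in DG75 and 8.75, 8.65 and 8.63 in Raji) overlapped between the lines, with differences of -0.03 ± 0.35 and -0.01 ± 0.35.

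The feedback inhibitors were unequal. TNFAIP3, the A20 ubiquitin editor that switches the pathway off, read 7.81, 7.84 and 7.91 on the DG75 arrays, against 10.00, 9.89 and 10.22 on the Raji arrays, 4.55-fold lower in DG75 (adjusted p = 5.54e-07). NFKBIE, the IκB-epsilon inhibitor, read 7.56, 7.30 and 7.11 on the DG75 arrays, against 9.29, 9.21 and 9.25 on the Raji arrays, 3.8-fold lower in DG75. NFKBIA, the IκB-alpha inhibitor, was well above background in both lines, 12.09, 12.36 and 12.15 in DG75 and 12.37, 12.46 and 12.50 in Raji, and was not called (-0.24 ± 0.19). On the other side, the kinase IKBKB (0.54 ± 0.16), the adaptor TRAF5 (0.84 ± 0.19) and the nuclear IκB protein NFKBIZ (0.33 ± 0.10) were called higher in DG75. For TRAF5 and NFKBIZ the call was lost when all probes of the gene were averaged, and for NFKBIZ also without normalization between arrays, without array 14 of DG75 (adjusted p = 0.0641) and without array 16 of Raji (0.088). The call of IKBKB was lost without array 17 of Raji (adjusted p = 0.0669).

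Of 43 measured NF-κB target genes (51 listed), 28 were lower in DG75 and 4 higher (74.4% called, against 38.9% of all genes), with a median of -0.85. With median centring 22 were lower and 3 higher, and the median was 0.88 below that of all genes. VCAM1, the endothelial and dendritic cell ligand of the integrin VLA-4, read 4.73, 4.24 and 4.21 on the DG75 arrays, against 9.27, 8.87 and 9.09 on the Raji arrays, and was at least 16.4-fold lower in DG75, while its other probes gave -1.42 and -0.75. Some survival genes of the list were lower as well, while BCL2A1, given above, was not called. BCL2L1, which encodes BCL-XL, read 8.33, 8.31 and 8.52 on the DG75 arrays, against 11.90, 11.85 and 11.83 on the Raji arrays, 11.1-fold lower in DG75 (adjusted p = 7.92e-11). CFLAR, which encodes the caspase-8 inhibitor c-FLIP, read 6.04, 5.81 and 5.54 on the DG75 arrays, against 8.35, 8.39 and 8.24 on the Raji arrays, 5.78-fold lower in DG75. IRF1 (-2.39 ± 0.21) and CD69 (-1.39 ± 0.18), an early activation marker, were lower too. Higher in DG75 were CXCL8, at 9.33, 9.07 and 9.47 on the DG75 arrays, against 6.90, 7.01 and 6.91 on the Raji arrays, 5.1-fold higher in DG75, and IER3 (1.02 ± 0.30), besides TNFAIP2 and NFKBIZ. Without array 16 of Raji, IER3 was not called (0.80, adjusted p = 0.0743). Of the NF-κB targets called lower, 10 of 23 with a window held either NF-κB pattern (43.5%), in a list that was assembled from genes known as targets.

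Chemokines and their receptors were mostly lower in DG75. Of 20 measured genes (40 listed), 14 were lower in DG75 and 1 higher (75% called, against 38.9% of all genes), with a median of -2.73, the lowest of the 32 lists. The counts were the same under median centring. ACKR3, a scavenging receptor for the chemokine CXCL12, read 4.73, 4.73 and 4.46 on the DG75 arrays, against 10.82, 10.82 and 11.01 on the Raji arrays, and was at least 57.2-fold lower. CCL3 (MIP-1 alpha) read 5.09, 4.68 and 5.11 on the DG75 arrays, against 10.64, 10.54 and 10.46 on the Raji arrays, 48.2-fold lower in DG75 with 2 of 3 DG75 arrays detected. CCL4L1 read 4.48, 4.44 and 5.23 on the DG75 arrays, against 9.87, 9.74 and 9.78 on the Raji arrays, and was detected on 1 DG75 array. CCL3 and CCL4L1 have near-identical gene copies, so their signals may be shared with those copies. CCR7, which guides B cells to the T cell zone of lymph nodes, was detected in both lines and read 6.39, 6.49 and 6.52 on the DG75 arrays, against 11.18, 11.16 and 10.94 on the Raji arrays, 24.7-fold lower in DG75 (adjusted p = 8.74e-13). CXCL8 (interleukin-8), given above, was the member higher in DG75.

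Other secreted cytokines differed about as often as all genes (42.1%). Of 19 measured TNF family ligands and cytokines (40 listed), 7 were lower and 1 higher, with a median of -0.35 that came to -0.03 with median centring, where 4 were lower and 1 higher. LTA, lymphotoxin alpha, read 8.78, 8.67 and 8.55 on the DG75 arrays, against 11.83, 11.90 and 11.82 on the Raji arrays, 9.09-fold lower in DG75 (adjusted p = 2.83e-12). IL32, a proinflammatory cytokine, read 5.38, 5.30 and 5.05 on the DG75 arrays, against 7.25, 7.51 and 7.49 on the Raji arrays, 4.51-fold lower in DG75, with 2 DG75 arrays detected. IL7, the lymphocyte growth factor, was not detected in DG75, was detected on 2 Raji arrays and was at least 1.19-fold lower. TNFSF8, the CD30 ligand, was higher in DG75 at 5.61, 5.67 and 5.71 on the DG75 arrays, against 4.53, 4.77 and 4.29 on the Raji arrays, at least 1.47-fold, with no Raji array detected.

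Among 28 measured TNF receptors and costimulatory molecules (40 listed), 14 were lower and 6 higher in DG75 (71.4% called, against 38.9% of all genes), with a median of -0.45. TNFRSF9, the costimulatory receptor 4-1BB, read 4.33, 4.84 and 4.30 on the DG75 arrays, against 8.54, 8.57 and 8.45 on the Raji arrays, and was at least 11.1-fold lower. TNFRSF14, the receptor HVEM, read 7.87, 8.06 and 7.94 on the DG75 arrays, against 11.39, 11.30 and 11.38 on the Raji arrays, 10.6-fold lower in DG75. FAS, the death receptor CD95, read 4.83, 4.58 and 4.37 on the DG75 arrays, against 7.17, 7.09 and 7.20 on the Raji arrays, and was at least 4.31-fold lower. The death receptors for TRAIL ran the other way. TNFRSF10A (TRAIL-R1) read 8.70, 9.08 and 8.45 on the DG75 arrays, against 7.17, 7.07 and 7.02 on the Raji arrays, 3.15-fold higher in DG75, and TNFRSF10B (TRAIL-R2) read 10.27, 10.36 and 10.24 on the DG75 arrays, against 9.25, 9.04 and 9.09 on the Raji arrays, 2.24-fold higher in DG75. TNFRSF4 (OX40), at 1.72 ± 0.21, and TNFRSF17 (BCMA), a receptor of plasma cells, at 1.47 ± 0.18, were also higher in DG75.

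Adhesion molecules were split evenly, with 8 lower and 8 higher of 27 measured (37 listed), 59.3% called, against 38.9% of all genes, and a median of 0.02. Besides VCAM1 and CD58, CD151 (-4.38 ± 0.43) and CD82 (-2.60 ± 0.23), both tetraspanin membrane organisers, were lower in DG75. CD151 read 6.91, 6.97 and 6.66 on the DG75 arrays, against 11.25, 11.23 and 11.19 on the Raji arrays, and the groups did not overlap. Higher in DG75 were ICAM3, a ligand of the integrin LFA-1 (9.35, 9.55 and 9.54 on the DG75 arrays, against 8.01, 8.11 and 7.73 on the Raji arrays, 2.9-fold), the integrin chain ITGB1 (1.36 ± 0.13), CD99 (1.26 ± 0.19) and the tetraspanin CD9, which no Raji array detected (at least 1.53-fold higher), though its other probe gave 0.08.

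Genes of antigen presentation were more often lower than higher in DG75 on both arms. Of 23 measured genes of MHC class I presentation (26 listed), 16 were lower and 1 higher (73.9% called, against 38.9% of all genes), with a median of -0.65, and with median centring 8 were lower and 1 higher, 0.65 below the median of all genes. TAP1, the peptide pump of the endoplasmic reticulum, read 8.89, 8.97 and 8.86 on the DG75 arrays, against 11.19, 11.26 and 11.19 on the Raji arrays, 4.94-fold lower in DG75 (adjusted p = 1.99e-09). PSMB9, a subunit of the immunoproteasome, read 6.55, 6.87 and 7.06 on the DG75 arrays, against 9.19, 9.06 and 9.02 on the Raji arrays, 4.8-fold lower in DG75, and the peptide editor TAPBPL gave -1.62 ± 0.21, with 2 DG75 arrays detected. Of the heavy chains, HLA-B read 9.65, 9.51 and 10.00 on the DG75 arrays, against 11.05, 11.10 and 10.94 on the Raji arrays, 2.48-fold lower in DG75, HLA-E gave -1.38 ± 0.13, and HLA-C, detected on 1 DG75 array and all Raji arrays, gave -1.01 ± 0.26, a call lost under median centring. B2M, the shared light chain, read 12.67, 12.75 and 12.75 on the DG75 arrays, against 13.05, 13.11 and 13.09 on the Raji arrays, 1.28-fold lower in DG75, a call lost under median centring and without any 1 of the 6 arrays (adjusted p from 0.0507 to 0.0856). MICB, a stress ligand for natural killer cells, was the member higher in DG75, at 8.85, 8.76 and 8.53 on the DG75 arrays, against 7.52, 7.75 and 7.42 on the Raji arrays. HLA genes are alike in sequence and differ between people, so a probe's signal can also depend on the alleles of the line, which was not tested.

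For MHC class II presentation, 13 of 23 measured genes (27 listed) were lower in DG75 and 3 higher (69.6% called, against 38.9% of all genes), with a median of -0.52, and 9 lower and 4 higher with median centring. CTSH, the lysosomal protease cathepsin H, had the lowest fitted difference of all genes tested (-7.57). It read 4.33, 4.31 and 4.46 on the DG75 arrays, against 11.97, 11.90 and 11.93 on the Raji arrays, and was at least 118-fold lower in DG75, where no array detected it (adjusted p = 7.89e-09), while its second probe gave -2.96. HLA-DPB1 read 7.57, 7.55 and 7.37 on the DG75 arrays, against 10.52, 10.48 and 10.53 on the Raji arrays, 8.06-fold lower in DG75, and HLA-DRB1 gave -2.71 ± 0.23. HLA-DOB, which restrains peptide loading, gave -1.67 ± 0.15. CIITA, the master regulator of class II genes, read 6.73, 7.15 and 6.90 on the DG75 arrays, against 7.92, 7.92 and 8.10 on the Raji arrays, 2.08-fold lower in DG75, and HLA-DRA gave -0.47 ± 0.11. The call of HLA-DRA was lost under median centring, and that of CIITA without normalization between arrays. RFXAP (0.59 ± 0.17) and RFXANK (0.53 ± 0.12), subunits of the RFX complex that binds class II promoters, were called higher, though not with the mean of all their probes. Also higher was the lipid-presenting molecule CD1C, a relative of MHC proteins (at least 1.47-fold, no Raji array detected).

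Interferon-stimulated genes were lower in DG75 in 25 of 42 measured cases (55 listed) and higher in 5 (71.4% called, against 38.9% of all genes), with a median of -0.77, or 19 lower and 5 higher and 0.76 below the median of all genes with median centring. IFI44L read 4.45, 4.58 and 4.33 on the DG75 arrays, against 7.08, 7.09 and 7.10 on the Raji arrays, and was at least 4.12-fold lower, while its other probe gave -0.51. IFIT3, of the IFIT family that restricts viral RNA, read 4.38, 4.62 and 4.75 on the DG75 arrays, against 7.25, 6.70 and 7.08 on the Raji arrays, and was at least 3.91-fold lower, with other probes at -1.82 and -0.68. PARP9, a partner of interferon signalling, was undetected in DG75 and at least 4.89-fold lower. IRF1, an interferon regulatory factor, read 7.66, 7.84 and 7.42 on the DG75 arrays, against 10.05, 10.06 and 9.98 on the Raji arrays, 5.23-fold lower in DG75. The opposite was seen for the membrane proteins that block virus entry: IFITM2 read 9.69, 9.59 and 9.44 on the DG75 arrays, against 7.74, 7.98 and 7.91 on the Raji arrays, 3.24-fold higher in DG75, and IFITM1 read 10.20, 10.38 and 10.15 on the DG75 arrays, against 9.03, 9.19 and 8.82 on the Raji arrays, 2.35-fold higher in DG75. PARP12 (1.68 ± 0.24, 1 Raji array detected) and SAMD9 (1.26 ± 0.20) were also higher in DG75.

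Receptors and signalling genes of interleukins and interferons differed about as often as all genes. Of 29 measured (43 listed), 9 were lower and 2 higher, 37.9% of them, with a median of -0.14 that turned to 0.03 with median centring, 0.21 below the median of all genes, where 4 were lower and 2 higher. Both chains of the interferon gamma receptor were lower in DG75: IFNGR1 read 8.36, 8.62 and 8.18 on the DG75 arrays, against 11.12, 11.17 and 11.18 on the Raji arrays, 6.83-fold lower in DG75, and IFNGR2 read 9.99, 10.05 and 9.79 on the DG75 arrays, against 11.47, 11.51 and 11.55 on the Raji arrays, 2.97-fold lower in DG75. The feedback inhibitor SOCS1 (-1.27 ± 0.18) and the kinase TYK2 (-0.94 ± 0.12) were lower too. IL10RB (1.44 ± 0.19) and IL4R (1.04 ± 0.13) were the members higher in DG75.

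Receptors for antibody and complement were lower or not called. Of 26 measured Fc, complement and innate receptors (42 listed), 15 were lower in DG75 and none was higher (57.7% called, against 38.9% of all genes), with a median of -0.63, and 10 were lower with median centring. Besides FCER2 and CR2, the Fc receptor-like genes were lower in DG75. FCRL4, a marker of memory B cells in tissue, read 4.45, 4.26 and 4.18 on the DG75 arrays, against 8.26, 8.25 and 8.66 on the Raji arrays, and was at least 10.1-fold lower. FCRL3 was at least 8.31-fold lower and FCRL2 at least 7.44-fold lower, both undetected in DG75, while their other probes gave -1.87 and -0.50. FCRL4, FCRL3 and FCRL2 are neighbours on chromosome 1.

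The B cell identity of both lines was present on the arrays. All 7 measured B cell markers were detected on all 3 DG75 arrays, and 6 of 7 on all 3 Raji arrays, with BLNK detected on 1. Of 39 measured genes of the B cell receptor and B cell identity (53 listed), 13 were lower in DG75 and 8 higher (53.8% called, against 38.9% of all genes), and 6 lower and 7 higher with median centring. Without array 13 of DG75, 13 members were called in all, against 21 with it. PRKCB, the protein kinase C that links the receptor to NF-κB, was among the 12 lowest genes of the comparison. It read 4.73, 4.44 and 4.30 on the DG75 arrays, against 10.20, 9.99 and 10.07 on the Raji arrays, and was at least 33-fold lower in DG75 (adjusted p = 7.95e-13), and its other probes gave -1.95 and -2.13. PIK3CD, the lymphocyte phosphoinositide 3-kinase, read 6.66, 7.03 and 7.08 on the DG75 arrays, against 9.24, 9.02 and 9.14 on the Raji arrays, 4.63-fold lower in DG75, and MS4A1, which encodes CD20, gave -1.14 ± 0.19, a call lost without normalization between arrays. Of the receptor chains, CD79A gave 0.41 ± 0.12, called higher except without normalization between arrays or with the mean of its probes, and CD79B gave -0.26 ± 0.11, not called. The B cell transcription factors IRF8 (0.89 ± 0.13) and IKZF3 (0.90 ± 0.34) and the surrogate light chain VPREB1 (0.96 ± 0.20) were called higher, and the call of IKZF3 was lost without any 1 of 5 arrays (adjusted p from 0.0511 to 0.138).

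**Figure D2:**
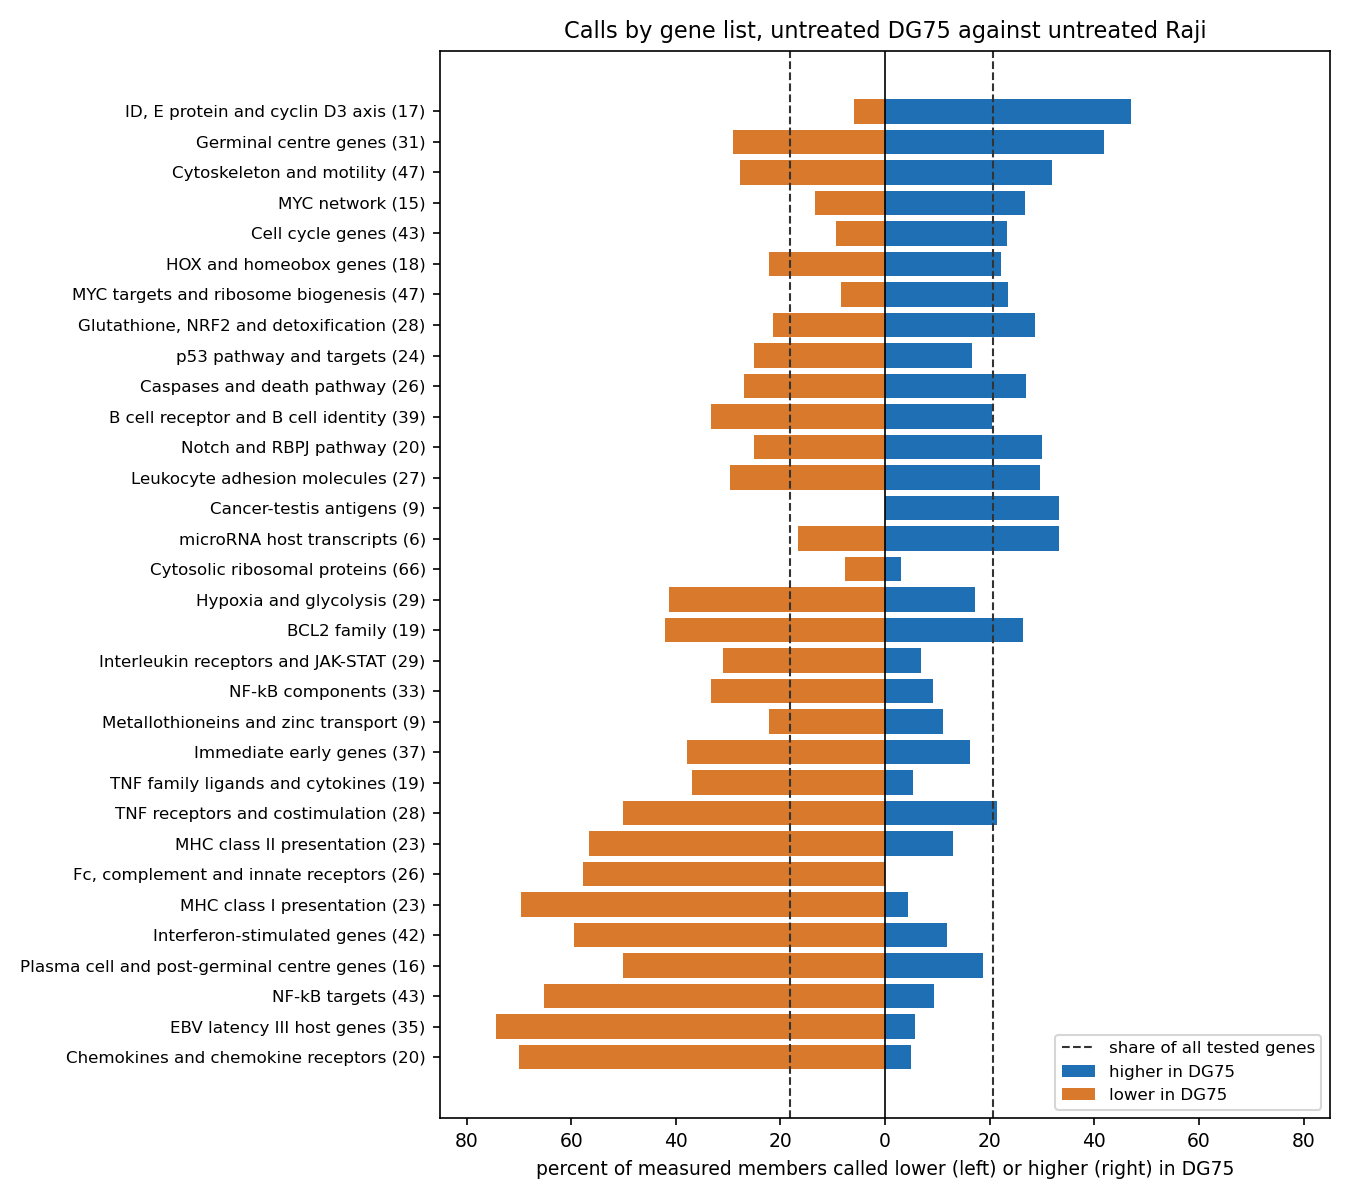
Percent of the measured members of each gene list called lower (left, orange) or higher (right, blue) in untreated DG75 relative to untreated Raji, with the number measured in brackets. Dashed lines mark the share of all tested genes, 18.2% lower and 20.7% higher; EBV latency III host genes, chemokines and MHC class I presentation extend farthest to the left, and the ID, E protein and cyclin D3 genes farthest to the right.

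Genes of the germinal centre stage were more often higher in DG75. Of 31 measured (37 listed), 13 were higher in DG75 and 9 lower (71% called, against 38.9% of all genes), with a median of 0.18, and with median centring 14 were higher and 6 lower, 0.19 above the median of all genes. MME, the CD10 antigen of germinal centre cells, read 9.24, 9.13 and 9.21 on the DG75 arrays, against 7.16, 7.56 and 7.40 on the Raji arrays, 3.54-fold higher in DG75. CD38, an enzyme on the same cells, read 8.89, 8.92 and 8.59 on the DG75 arrays, against 7.16, 7.30 and 7.25 on the Raji arrays, 2.96-fold higher in DG75. BCL6, the repressor that defines the stage, read 11.49, 11.56 and 11.30 on the DG75 arrays, against 9.95, 10.31 and 10.04 on the Raji arrays, 2.55-fold higher in DG75 (adjusted p = 2.55e-07). MME, CD38 and BCL6 were detected on every array of both lines. Of 7 germinal centre markers measured, these 3 among them, 4 were called higher in DG75 and 2 lower. SERPINA9 (means of 9.99 in DG75 and 10.89 in Raji) and GCSAM (6.58 and 7.67) had the lower mean in DG75. BACH2, another repressor of plasma cell fate, was undetected in Raji and at least 1.79-fold higher in DG75, though its other probe gave 0.20. TCL1A, an AKT cofactor, was not called (-0.32 ± 0.16).

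Other genes of the stage were lower in DG75. A4GALT, which makes the CD77 glycolipid of Burkitt cells, read 5.64, 5.46 and 5.23 on the DG75 arrays, against 8.08, 8.23 and 8.07 on the Raji arrays, 6.44-fold lower in DG75. CD27, a receptor of memory B cells, read 6.48, 6.28 and 6.38 on the DG75 arrays, against 8.36, 8.43 and 8.38 on the Raji arrays, 4.03-fold lower in DG75. HOPX, an atypical homeodomain protein, was undetected in DG75 and at least 1.48-fold lower, with its other probe at -0.35. In the list of plasma cell and post-germinal centre genes, 8 of 16 measured (21 listed) were lower and 3 higher (68.8% called, against 38.9% of all genes), with a median of -0.81. PRDM1, which encodes the plasma cell regulator BLIMP1, read 5.48, 5.73 and 5.44 on the DG75 arrays, against 7.16, 6.80 and 7.41 on the Raji arrays, 2.98-fold lower in DG75, and the transcription cofactor SUB1 gave -1.75 ± 0.18. CREB3L2, a membrane-bound factor of secretory cells, was called higher (0.55 ± 0.15).

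The ID and E protein axis, which is mutated in many Burkitt tumours, was more often higher than lower in DG75. ID proteins bind E proteins such as TCF3 and keep them off DNA. Of 17 measured genes (20 listed), 8 were higher and 1 lower (52.9% called, against 38.9% of all genes), with a median of 0.24, and 8 higher and 0 lower with median centring. ID1 read 8.81, 8.72 and 8.67 on the DG75 arrays, against 5.27, 6.01 and 5.36 on the Raji arrays, 9.1-fold higher in DG75 with Raji near the detection limit, and its other probe gave 0.92. ID3, the member most often mutated in Burkitt lymphoma, read 11.02, 10.77 and 11.14 on the DG75 arrays, against 9.12, 9.48 and 9.08 on the Raji arrays, 3.36-fold higher in DG75 (adjusted p = 2.34e-08). The E proteins TCF3, at 9.45, 9.53 and 9.79 on the DG75 arrays, against 8.65, 8.60 and 8.63 on the Raji arrays, and TCF4, at 8.89, 8.88 and 9.03 on the DG75 arrays, against 7.42, 7.93 and 7.75 on the Raji arrays, were 1.95-fold and 2.34-fold higher. ID4, undetected in Raji, was at least 1.49-fold higher, and CCND3, the cyclin D3 of germinal centre cells, gave 0.39 ± 0.11. The call of CCND3 was lost without normalization between arrays, without array 14 of DG75 (adjusted p = 0.0508) and without array 18 of Raji (0.0517). The kinase CDK4 was called lower (-0.37 ± 0.12), but not under median centring, without array 15 of DG75 (adjusted p = 0.0916) or without array 18 of Raji (0.0577).

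**Figure D3:**
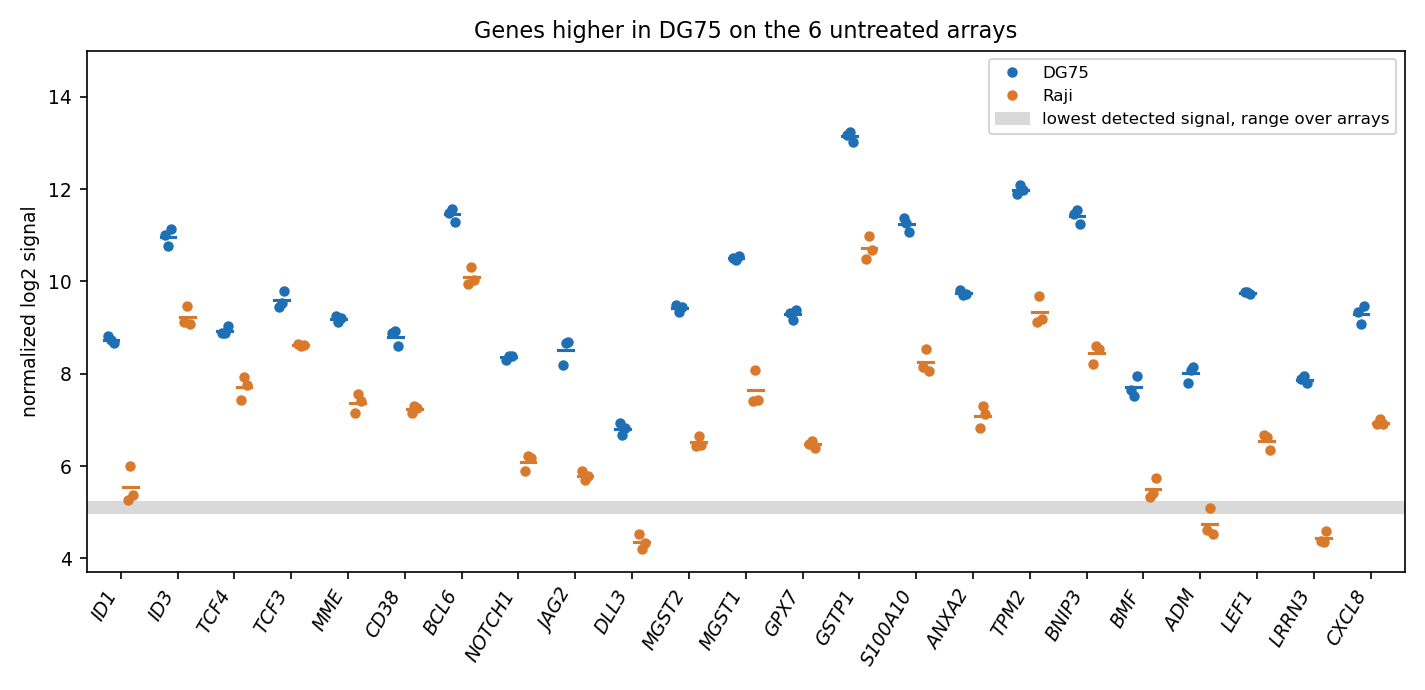
Normalized log2 signal (vertical axis) of 23 genes higher in DG75 on the 6 untreated arrays. Each point is an array, DG75 in blue on the left and Raji in orange on the right of each gene, the line is the mean of 3 arrays, and the grey band spans the lowest detected signal over these arrays; DLL3, ADM and LRRN3 were detected on no Raji array, and the points of the lines do not overlap for any of the 23 genes.

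Notch genes were split between the lines. Of 20 measured (31 listed), 6 were higher in DG75 and 5 lower (55% called, against 38.9% of all genes), with a median of 0.03. NOTCH1 read 8.29, 8.38 and 8.39 on the DG75 arrays, against 5.89, 6.22 and 6.18 on the Raji arrays, 4.79-fold higher in DG75, and the ligand JAG2 read 8.18, 8.67 and 8.69 on the DG75 arrays, against 5.89, 5.69 and 5.78 on the Raji arrays, 6.63-fold higher in DG75. DLL3, an atypical ligand that inhibits Notch in the same cell, was at least 3.24-fold higher, and NOTCH4 at least 1.58-fold higher, neither detected in Raji. NOTCH2, the receptor of marginal zone B cells, was lower instead, at 4.69, 4.44 and 4.83 on the DG75 arrays, against 6.52, 6.01 and 6.20 on the Raji arrays, at least 2.3-fold. The target genes HES1, given above, and HEY1 (6.29, 6.24 and 6.58 on the DG75 arrays, against 8.0, 8.02 and 8.07 on the Raji arrays, 3.17-fold) were lower in DG75, as was DTX2 (-1.15 ± 0.14).

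The study's title concerns cell death after chemotherapy and NF-κB, and the death genes differed in both directions. Of 19 measured BCL2 family genes (21 listed), 8 were lower in DG75 and 5 higher (68.4% called, against 38.9% of all genes), with a median of -0.11 that turned to 0.16 with median centring, 0.08 below the median of all genes, where 3 were lower and 5 higher. Besides BCL2L1, the survival gene BCL2 was lower, at 6.27, 6.24 and 6.45 on the DG75 arrays, against 8.11, 8.01 and 8.18 on the Raji arrays, 3.44-fold lower in DG75, with other probes at -0.14 and -1.99. MCL1 (0.34 ± 0.24) and BCL2A1 (0.16 ± 0.21), also survival genes, were not called. Among the killers, BAX gave -1.19 ± 0.37, a call lost under median centring, without array 15 of DG75 (adjusted p = 0.0725) and without array 16 of Raji (0.077), and HRK gave -1.54 ± 0.24. BNIP3, a mitophagy receptor, read 11.46, 11.56 and 11.24 on the DG75 arrays, against 8.21, 8.61 and 8.54 on the Raji arrays, 7.8-fold higher in DG75 (adjusted p = 2.68e-10), and BMF, a BH3-only protein tied to the cytoskeleton, read 7.66, 7.53 and 7.95 on the DG75 arrays, against 5.33, 5.42 and 5.74 on the Raji arrays, 4.64-fold higher in DG75. BIK (1.07 ± 0.15) and PMAIP1, which encodes NOXA (1.03 ± 0.18), were higher as well.

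Of 26 measured caspase and death pathway genes (31 listed), 7 were higher and 7 lower in DG75 (53.8% called, against 38.9% of all genes), with a median of 0.03. With median centring 7 were higher and 3 lower, with a median of 0.28, 0.04 above that of all genes. APAF1, the scaffold that activates caspase-9, read 7.96, 8.10 and 8.18 on the DG75 arrays, against 6.22, 6.65 and 6.93 on the Raji arrays, 2.79-fold higher in DG75, though its other probe gave 0.07. The inflammatory caspases went opposite ways. CASP4 read 7.84, 7.88 and 7.47 on the DG75 arrays, against 6.15, 5.80 and 6.13 on the Raji arrays, 3.27-fold higher in DG75, and CASP1 read 5.45, 5.59 and 5.33 on the DG75 arrays, against 7.56, 7.56 and 7.44 on the Raji arrays, 4.17-fold lower in DG75. The executioner CASP6 gave 1.45 ± 0.15. The protease HTRA2, released from mitochondria in dying cells, gave -1.16 ± 0.31, a call lost under median centring. CASP8 (-0.56 ± 0.39) and XIAP (0.16 ± 0.24, detected on 1 DG75 array and no Raji array) were not called.

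Genes of the p53 pathway differed about as often as all genes (41.7%), with 6 lower and 4 higher of 24 measured (33 listed), and with 2 lower and 3 higher under median centring. TP53INP1, a p53 target that promotes cell death, read 7.33, 7.67 and 7.61 on the DG75 arrays, against 5.33, 5.36 and 5.62 on the Raji arrays, 4.28-fold higher in DG75. TIGAR, a p53 target that slows glycolysis, read 8.18, 8.39 and 7.89 on the DG75 arrays, against 9.67, 9.67 and 10.04 on the Raji arrays, 3.12-fold lower in DG75, and SESN1 gave -0.99 ± 0.22, a call lost under median centring. CDKN1A (p21), the classical target, was not called (-0.21 ± 0.13), nor was CDKN2A (0.24 ± 0.13).

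MYC itself was higher in DG75, at 11.08, 11.13 and 11.11 on the DG75 arrays, against 10.18, 10.39 and 10.35 on the Raji arrays, 1.74-fold higher in DG75 (adjusted p = 0.000324), and its other probe gave 0.85. Of 15 measured genes of the MYC network (17 listed), 4 were higher and 2 lower, a share of 40%. The MYC antagonists MXD1 (1.56 ± 0.21, 1 Raji array detected) and MNT (0.63 ± 0.14) were higher, and BIN1, a MYC-binding tumour suppressor, was undetected in DG75 and at least 2.26-fold lower. Of 47 measured MYC targets and ribosome biogenesis genes (50 listed), 11 were higher and 4 lower, and 32 were not called, a share called of 31.9%. TERT, the telomerase reverse transcriptase, was undetected in Raji and at least 2.57-fold higher, with its other probe at 0.54, and SHMT2 (0.85 ± 0.13), TYMS (0.71 ± 0.13) and HK2 (0.71 ± 0.14) were higher too. SRM, which makes spermidine, was lower, at 8.68, 8.35 and 8.43 on the DG75 arrays, against 9.91, 9.70 and 9.69 on the Raji arrays, 2.44-fold lower in DG75.

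Cell cycle genes were called in 32.6% of cases, below the 38.9% of all genes. Of 43 measured (44 listed), 10 were higher and 4 lower in DG75, and 29 were not called, with a median of 0.15. With median centring 12 were higher and 0 lower, and without array 14 of DG75 9 were called in all, against 14 with it. CCNE1, cyclin E1, read 8.51, 8.41 and 8.49 on the DG75 arrays, against 7.35, 7.66 and 7.54 on the Raji arrays, 1.94-fold higher in DG75. CCNB1 (0.75 ± 0.15) and GMNN (0.75 ± 0.14), a licensing inhibitor, were higher. CENPF (-0.62 ± 0.15), MCM4 (-0.53 ± 0.15), UBE2C (-0.46 ± 0.14) and BUB1 (-0.41 ± 0.16) were lower, and all 4 lost their call under median centring. The calls of UBE2C and BUB1 were lost also without 1 array, UBE2C without array 14 of DG75 (adjusted p = 0.0553) or array 16 of Raji (0.0642) and BUB1 without any 1 of the 6 (0.0731 to 0.133). Of 66 measured cytosolic ribosomal protein genes (75 listed), 5 were lower and 2 higher (1 lower and 3 higher with median centring) and 59 were not called, a share called of 10.6%, against 38.9% of all genes. Their median of -0.035 turned to 0.094 with median centring. RPS23, of the small subunit, read 11.43, 11.52 and 11.50 on the DG75 arrays, against 10.02, 9.77 and 9.93 on the Raji arrays, 2.98-fold higher in DG75, and RPL28, of the large subunit, read 6.04, 6.35 and 6.11 on the DG75 arrays, against 7.23, 7.67 and 7.32 on the Raji arrays, 2.37-fold lower in DG75. RPL34 was called higher (0.42 ± 0.12) although its second probe gave -1.39, and not without array 15 of DG75 (adjusted p = 0.058). Ribosomal protein genes have many processed copies that share their sequence.

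Detoxification genes differed in both directions. Of 28 measured genes of glutathione, NRF2 and detoxification (38 listed), 8 were higher and 6 lower (50% called, against 38.9% of all genes), with a median of 0.08, and 7 higher and 3 lower with median centring. The microsomal glutathione transferases MGST1, at 10.51, 10.46 and 10.56 on the DG75 arrays, against 7.41, 8.09 and 7.44 on the Raji arrays, and MGST2, at 9.5, 9.35 and 9.44 on the DG75 arrays, against 6.44, 6.65 and 6.46 on the Raji arrays, were 7.29-fold and 7.52-fold higher. GPX7, a peroxidase of the endoplasmic reticulum, read 9.33, 9.17 and 9.38 on the DG75 arrays, against 6.47, 6.55 and 6.39 on the Raji arrays, 7.07-fold higher in DG75 (adjusted p = 2.61e-10). GSTP1, a transferase that conjugates many drugs, read 13.18, 13.24 and 13.03 on the DG75 arrays, against 10.49, 10.98 and 10.68 on the Raji arrays, 5.4-fold higher in DG75. The third microsomal enzyme, MGST3, was lower at 6.68, 6.39 and 6.17 on the DG75 arrays, against 8.38, 8.48 and 8.42 on the Raji arrays, 4.05-fold lower in DG75. NQO1, a quinone reductase and NRF2 target, read 7.54, 7.61 and 7.20 on the DG75 arrays, against 10.23, 10.21 and 10.18 on the Raji arrays, 6.76-fold lower in DG75, and thioredoxin TXN gave -0.57 ± 0.12, a call lost under median centring.

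Hypoxia and glycolysis genes were lower in 12 of 29 measured cases (34 listed) and higher in 5 (58.6% called, against 38.9% of all genes), with a median of -0.07, but 3 were lower and 6 higher with median centring, where the median was 0.20, 0.04 below that of all genes. ADM, the vasodilator adrenomedullin, was undetected in Raji, read 7.81, 8.08 and 8.15 on the DG75 arrays, against 4.6, 5.08 and 4.53 on the Raji arrays, and was at least 7.48-fold higher. PFKFB4, which controls the flux of glycolysis, read 6.56, 6.59 and 6.61 on the DG75 arrays, against 9.07, 9.28 and 9.11 on the Raji arrays, 5.9-fold lower in DG75, and the glucose transporter SLC2A3 read 5.52, 6.10 and 5.44 on the DG75 arrays, against 7.84, 7.89 and 7.84 on the Raji arrays, 4.51-fold lower in DG75. ALDOC, an aldolase of brain, read 9.14, 9.27 and 9.08 on the DG75 arrays, against 11.73, 11.69 and 11.57 on the Raji arrays, 5.64-fold lower in DG75. The metal-binding metallothioneins MT2A (-1.88 ± 0.22) and MT1X (-1.13 ± 0.16) were lower, among 9 measured genes (15 listed) with 2 lower and 1, the zinc importer SLC39A14 (1.02 ± 0.18), higher. That is a share called of 33.3%, against 38.9% of all genes, and the median of -0.15 turned to 0.11 with median centring.

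The cytoskeleton list was large and mixed, with 15 of 47 measured genes (57 listed) higher in DG75 and 13 lower (59.6% called, against 38.9% of all genes), or 15 and 8 with median centring. S100A10 and ANXA2, which form a complex at the cell membrane, were higher together. S100A10 read 11.37, 11.27 and 11.08 on the DG75 arrays, against 8.15, 8.54 and 8.07 on the Raji arrays, 7.9-fold higher in DG75, and ANXA2 read 9.81, 9.71 and 9.72 on the DG75 arrays, against 6.82, 7.30 and 7.12 on the Raji arrays, 6.35-fold higher in DG75. TPM2, a tropomyosin that coats actin, read 11.90, 12.09 and 11.98 on the DG75 arrays, against 9.13, 9.68 and 9.19 on the Raji arrays, 6.31-fold higher in DG75. FSCN1, an actin bundler known as an LMP1-induced gene, read 4.69, 5.16 and 5.49 on the DG75 arrays, against 7.73, 7.68 and 7.49 on the Raji arrays, 5.73-fold lower in DG75, with 2 DG75 arrays detected. TUBB6, a tubulin, was undetected in DG75 and at least 4.03-fold lower, and the platelet and leukocyte protein PLEK gave -1.49 ± 0.12.

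Immediate early genes, whose RNA responds within minutes to stimulation or handling, were lower in 14 of 37 measured cases (46 listed) and higher in 6 (54.1% called, against 38.9% of all genes), with a median of -0.30, or 9 lower and 7 higher with median centring. DUSP5, a phosphatase that ends ERK signalling, read 6.87, 6.98 and 7.08 on the DG75 arrays, against 9.19, 9.36 and 9.20 on the Raji arrays, 4.84-fold lower in DG75. The kinase SGK1 (-1.95 ± 0.14), the factor KLF6 (-1.83 ± 0.19) and RGS1 (-1.76 ± 0.15), a brake on chemokine receptors, were lower as well. RGS2, of the same family as RGS1, was higher at 10.65, 10.77 and 10.57 on the DG75 arrays, against 8.82, 8.60 and 9.13 on the Raji arrays, 3.52-fold higher in DG75, as was TIPARP, an AHR target, at 10.73, 10.70 and 10.36 on the DG75 arrays, against 8.74, 8.52 and 8.75 on the Raji arrays, 3.8-fold higher in DG75.

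Developmental genes were sparse. Of 18 measured homeobox genes (41 listed), 4 were higher and 4 lower, 44.4% of them and so near the share of all genes. HHEX, a factor of blood cell development, was undetected in Raji and at least 4.6-fold higher. MEIS2, a HOX partner, read 8.68, 8.74 and 9.08 on the DG75 arrays, against 6.67, 6.91 and 6.96 on the Raji arrays, 3.97-fold higher in DG75, and PITX1 read 11.85, 11.91 and 11.79 on the DG75 arrays, against 10.12, 10.45 and 10.06 on the Raji arrays, 3.11-fold higher in DG75. HOXB7 was undetected in DG75, read 4.27, 4.44 and 4.27 on the DG75 arrays, against 7.0, 6.76 and 6.73 on the Raji arrays, and was at least 3.44-fold lower. HOXB4, undetected in DG75, was at least 1.37-fold lower, and IRX5, undetected in Raji, at least 1.72-fold higher. HOXC6 (-0.90 ± 0.30) was called lower, but not under median centring or without any 1 of 4 arrays (adjusted p from 0.0628 to 0.126). Of 9 measured cancer-testis antigens (41 listed), 3 were higher and none lower, a share called of 33.3%, against 38.9% of all genes. Their median of -0.02 turned to 0.09 with median centring. The members called were PAGE5 at least 2.37-fold, CTAG2 at least 1.39-fold and DDX43 at least 1.12-fold, none of them detected in Raji.

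Among 6 measured microRNA host transcripts (25 listed), 2 were higher and 1 lower in DG75 (50% called, against 38.9% of all genes). Their median of -0.03 turned to 0.15 with median centring. MIR99AHG, on chromosome 21, read 4.31, 4.68 and 4.23 on the DG75 arrays, against 9.37, 9.40 and 9.35 on the Raji arrays, and was at least 20.1-fold lower in DG75, where no array detected it (adjusted p = 1.07e-12), and its other probe gave -4.46. MIR181A2HG, on chromosome 9, read 6.31, 6.37 and 6.28 on the DG75 arrays, against 4.91, 4.84 and 4.53 on the Raji arrays, and was at least 2.31-fold higher in DG75. DLEU1, a transcript of chromosome 13 beside a microRNA cluster, gave 0.76 ± 0.14. The mature 5′ arms held by the first pair of hosts are shown to identify the microRNAs concerned, from RefSeq on GRCh38.p14, all on the plus strand, with the seed, bases 2 to 8, in capitals.
hsa-miR-99a-5p (chr21:16539101-16539122): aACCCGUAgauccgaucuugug
hsa-let-7c-5p (chr21:16539838-16539859): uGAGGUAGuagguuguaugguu
hsa-miR-125b-5p (chr21:16590253-16590274): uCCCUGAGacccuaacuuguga
hsa-miR-181a-5p (chr9:124692480-124692502): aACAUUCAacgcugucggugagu
hsa-miR-181b-5p (chr9:124693725-124693747): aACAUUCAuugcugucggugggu
The 3 microRNAs in MIR99AHG have different seeds, and the 2 in MIR181A2HG share theirs. The arrays measured the host transcripts, and the mature microRNAs were not analysed here.

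Genes outside the lists complete the extremes. Lower in DG75 and undetected there were PLAC8, a small cysteine-rich protein of leukocytes, at least 42.3-fold, PTGER4, the prostaglandin E2 receptor EP4, at least 37.5-fold, and the palmitoyltransferase ZDHHC14, at least 26.3-fold. PLAC8 read 4.31, 4.40 and 4.75 on the DG75 arrays, against 10.58, 10.27 and 10.50 on the Raji arrays. PTGER4 read 4.45, 4.62 and 4.75 on the DG75 arrays, against 10.22, 10.16 and 10.45 on the Raji arrays. Both were detected on every Raji array and on none of DG75. At the other end, LRRN3, a leucine-rich repeat membrane protein, read 7.88, 7.95 and 7.79 on the DG75 arrays, against 4.38, 4.34 and 4.59 on the Raji arrays, and was at least 6.78-fold higher, with no Raji array detected. LEF1, a transcription factor of Wnt signalling and of early B cells, read 9.77, 9.76 and 9.73 on the DG75 arrays, against 6.67, 6.63 and 6.35 on the Raji arrays, 9.23-fold higher in DG75 (adjusted p = 3.29e-10).

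Apart from ADM, given above and undetected in Raji, the rest of the 12 highest genes were detected on at least 1 Raji array. RAB40B (8.61, 8.53 and 8.40 on the DG75 arrays, against 4.83, 5.54 and 4.91 on the Raji arrays) was higher by 3.42 ± 0.19 in the fit, with 1 Raji array detected and the other two below their lowest detected signal. LXN, the carboxypeptidase inhibitor latexin, was 9.96-fold higher and AKAP19 was 9.49-fold higher. NLRP2, a member of the innate immune NLR family, was 9.18-fold, the chromatin protein HMGN5 9.02-fold and the RAS-like GTPase RERG 8.93-fold higher. KLF9, a hormone-responsive factor, was 8.52-fold higher, with 2 Raji arrays detected, and EEF1A2, the elongation factor form of muscle and nerve, 8.48-fold higher. EEF1A2 read 11.77, 11.93 and 11.75 on the DG75 arrays, against 8.53, 9.06 and 8.61 on the Raji arrays, and was detected on all arrays of both lines.

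The same comparison could be made on 12 arrays that the untreated one does not use. With Bay-11, 4751 genes differed between the lines (44.4%), 2730 higher (25.5%) and 2021 lower (18.9%) in DG75, and with TPCK 4111 differed (38.4%), 2061 higher (19.3%) and 2050 lower (19.2%). Of the genes higher in untreated DG75, 1541 (69.6%) were also higher in both treated comparisons, and of those lower, 1372 (70.4%) were also lower in both. The extremes were shared almost throughout: 177 of 179 genes higher by over 4-fold and 249 of 254 lower by over 4-fold were called in both treated comparisons. EBI3 gave -7.34 with Bay-11 and -6.60 with TPCK, beside -7.50 untreated, and FCER2 gave -5.62 and -5.25, beside -5.57. ID3 gave 2.59 and 2.50, beside 1.75. The treated DG75 arrays numbered 7 (TPCK) and 10 (Bay-11) were found apart from their groups in earlier work on these files. Without them 4536 genes differed with Bay-11 and 4417 with TPCK. All 18 arrays were normalized together and the error is shared, so the 3 comparisons are not wholly separate.

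No gene's line difference changed with either compound at an adjusted p under 0.05 in limma's test of the interaction. The smallest adjusted p was 0.104 with Bay-11 and 0.129 with TPCK, while 692 and 595 genes had an unadjusted p under 0.05. Among the named genes, FAS gave -1.46 with Bay-11 and -2.13 with TPCK, beside -2.56 untreated, and SESN1 gave 0.03 and -0.13, beside -0.99. NFKBIZ, higher in untreated DG75 at 0.33, was called lower in DG75 with Bay-11 at -0.36 (adjusted p = 0.0106) and gave -0.19 with TPCK, and its interaction with Bay-11 had an unadjusted p of 0.000247 and an adjusted p of 0.265. Chosen after their values were seen, DDX50 and MYADM were lower untreated and called higher with Bay-11, and with TPCK the direction of the call turned round for GPANK1, RNU6ATAC and SLC39A13. CDKN1A gave 0.94 and 0.70, beside -0.21.

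**Figure D4:**
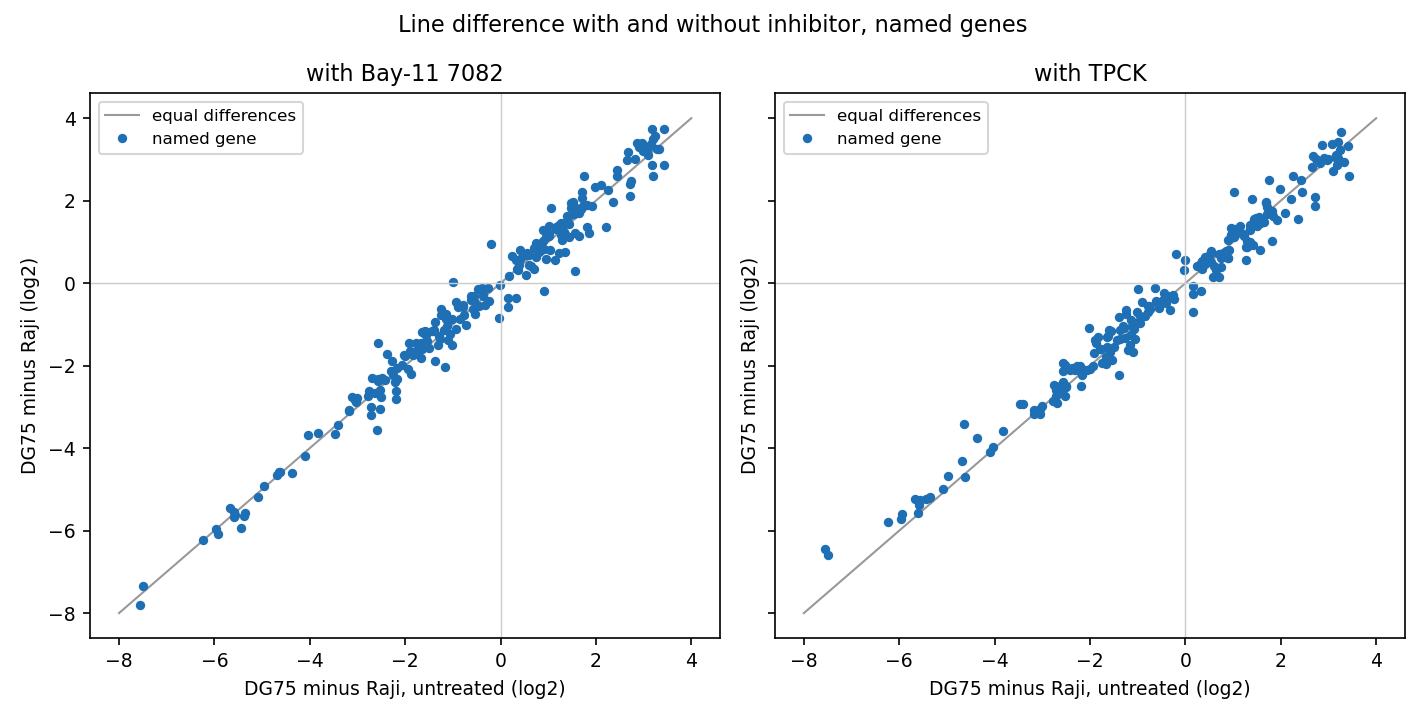
Difference DG75 minus Raji (log2) of the named genes with Bay-11 (left panel) and TPCK (right panel) on the vertical axis, against the untreated difference on the horizontal axis. Each point is a gene and the grey line marks equal differences; points lie along the line from EBI3 and CTSH at the lower left to the genes near 3.44 at the upper right.

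Differences also ran in blocks along chromosomes, a pattern noticed in the data and described here without a test. Tested genes were taken in windows of 20 in chromosome order, 523 in all, and blocks of at least 4 neighbouring windows with medians past 0.3 were listed after their values were seen. On chromosome 8, 5 windows from LOC100128993 to SPIDR, 100 genes, had a median of 0.73, with 59 genes (59%) higher and 2 (2%) lower in DG75. The block holds TNFRSF10A, TNFRSF10B, SLC39A14 and IKBKB, given above, and BNIP3L (0.89 ± 0.17), a mitophagy receptor related to BNIP3. With Bay-11 its median was 0.80 and with TPCK 0.67. On chromosome 3, 6 windows from SNRK to CCDC66, 120 genes, had a median of -0.51, with 68 (56.7%) lower and 8 (6.67%) higher, and it holds PFKFB4. Its median was -0.52 with Bay-11 and -0.51 with TPCK. Under median centring the chromosome 8 block stood 0.655 above and the chromosome 3 block 0.505 below the median of all genes, with 60 genes higher and 1 lower on chromosome 8, and with 6 higher and 26 lower on chromosome 3, against 68 lower with quantile normalization.

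Some whole chromosomes were shifted as well. All 14 windows of chromosome 20 had a median below 0, with 99 of 297 genes lower (33.3%) and 25 higher (8.42%) and a median of -0.23, which under median centring was 0.00122, 0.238 below that of all genes. The imbalance of calls rests on the scaling, with 30 genes lower and 25 higher under median centring and 28 lower and 22 higher without normalization between arrays. Chromosome 18 had a median of 0.31, with 62 of 148 genes higher (41.9%) and 18 lower (12.2%). All 9 windows of chromosome 13 and all 17 of chromosome 15 had a median above 0 in untreated cells. Their lowest windows were at 0.06 and 0.009, against a median of 0.03 over all genes. As wholes, chromosomes 13 and 15 stood 0.142 and 0.136 above that median. With TPCK, windows of both fell below 0 (to -0.04 on chromosome 13 and -0.26 on chromosome 15), and with Bay-11 windows of chromosome 15 did. Some chromosomes without all windows on 1 side leaned to a similar degree. Chromosome 4 had a median of 0.13, with 31% of its genes higher and 16.5% lower, and 14 of 17 windows above 0. Chromosome 7 had a median of -0.12, with 11.7% higher and 25.1% lower, and 17 of 24 windows below 0. DNA copy number was not analysed here.

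**Figure D5:**
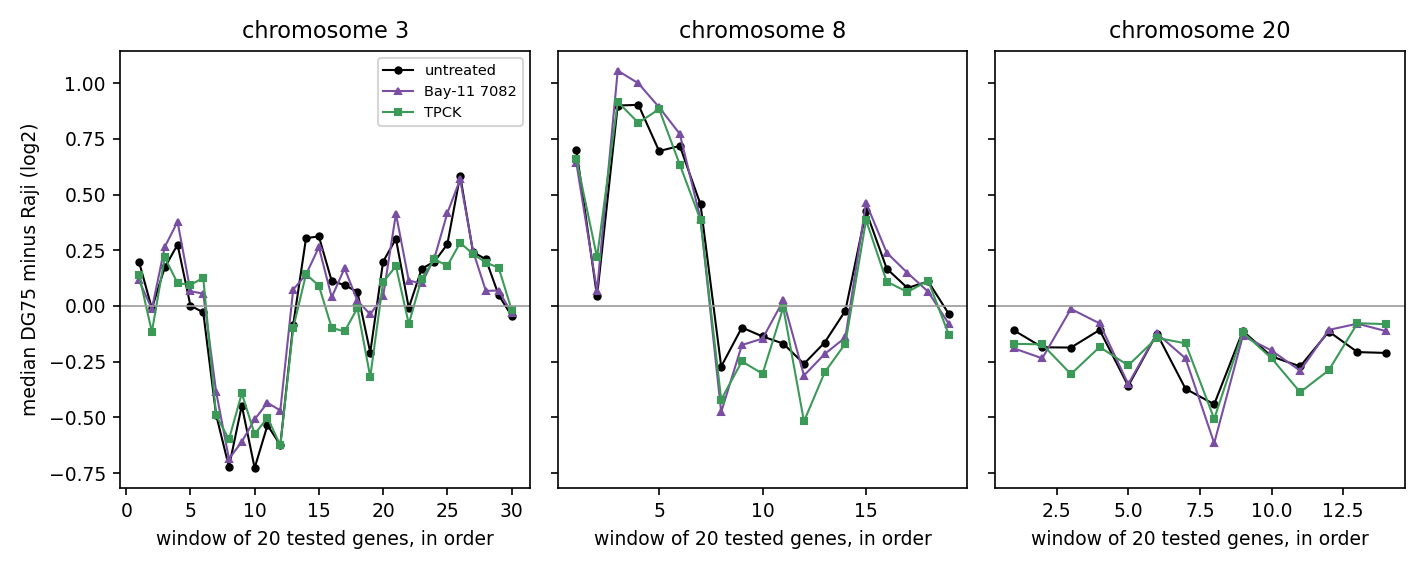
Median difference DG75 minus Raji (log2, vertical axis) in windows of 20 tested genes in order along chromosomes 3, 8 and 20 (horizontal axis), for untreated cells (black), Bay-11 (purple) and TPCK (green). The 3 comparisons trace the same dip on chromosome 3, rise on chromosome 8 and values below 0 along chromosome 20.

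Signals of other cell types were sparse in both lines but not absent. Of 4 T cell markers with a probe, LCK was detected in both lines (means of 7.86 in DG75 and 5.33 in Raji), CD7 was detected in DG75 alone (means of 5.29 in DG75 and 4.77 in Raji) and CD3D in Raji alone (means of 4.37 in DG75 and 7.16 in Raji), while ZAP70 was undetected in both. NKG7, a natural killer cell marker, and CSF1R, a macrophage marker, were also detected in Raji alone, with means of 4.44 in DG75 and 6.67 in Raji, and of 4.26 in DG75 and 7.14 in Raji. Other markers of the same lists went the other way, near the detection limit. NCAM1 (means of 4.90 in DG75 and 4.88 in Raji) and CST3 (4.91 and 4.36) were each detected on 2 DG75 arrays and no Raji array. ITGAM was detected on 1 Raji array and no DG75 array. The myeloid marker CD14 was detected on all arrays of both lines (means of 5.31 in DG75 and 5.49 in Raji), and LYZ on 3 DG75 arrays and 2 Raji arrays (means of 5.86 in DG75 and 5.34 in Raji). The fetal globin genes HBG1 and HBG2, which share nearly all their sequence, were detected in Raji alone, with means of 4.53 in DG75 and 8.38 in Raji for HBG1 and of 4.22 in DG75 and 8.73 in Raji for HBG2, while HBB, HBD and AHSP were undetected in both lines and the erythroid enzyme gene ALAS2 was detected on 1 DG75 array and 2 Raji arrays (means of 4.79 in DG75 and 5.08 in Raji). Of 10 fibroblast and epithelium markers with a probe, 7 were undetected in both lines, among them COL1A2 and the keratins KRT8, KRT18 and KRT19. COL1A1 was detected in Raji alone, and EPCAM on 2 arrays of each line. Whether RNA of other cells contributed to these signals was not tested.

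The arrays of both lines overlapped in how many probes they detected. Between 13710 and 14270 probes were detected on each DG75 array and between 13072 and 14530 on each Raji array, and mean raw signals ran from 182 to 235 in DG75 and from 171 to 202 in Raji. Arrays of the same line correlated at 0.989 to 0.993 over genes and arrays of different lines at 0.917 to 0.922. The 6 columns are numbered 13 to 15 for DG75 and 16 to 18 for Raji, and the sources used here do not say what the numbers stand for, so any effect of array order and the line cannot be told apart. Among genes called different, 1304 of 1471 further probes had the same sign as the probe that stood for the gene, 701 were called the same way and 19 the opposite way.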

How the data were processed

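The study measured RNA on Illumina bead arrays, 18 in all, of which the 6 untreated ones carry this comparison; groups were taken from the labels. Per the labels' protocols, RNA was extracted with Trizol, cleaned and labelled as biotinylated cRNA. The authors deposited log2 raw bead signals, not normalized, per the file headers. They also deposited a detection p-value for each probe and array, per the file headers. The scanner software is not given in the sources used here. A second deposited table was not used, because its DG75 and Raji columns are on different scales. Here 49576 probes were background corrected by normexp from the detection p-values (offset 16) and then brought to common quantiles by the function neqc, in R 4.3.3 with limma 3.58.1. The 17652 probes with a detection p under 0.01 on at least 3 arrays were kept, of which 14195 had a gene symbol in the platform annotation. The kept probe with the highest mean stood for its gene. XIST and Y-linked genes were left out of the choice of named genes, not out of the tests. Limma's lmFit and eBayes were run on 6 group means over all 18 arrays (12 residual degrees of freedom), with Benjamini-Hochberg adjustment, and an adjusted p under 0.05 was a call. The code was tested on simulated data. A gene not detected on any array of a line has only a bound there: "at least N-fold" sets the brighter line's mean against the higher of each array's lowest detected signal and the gene's own value, with the adjusted p of the fit.

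Genes were named by a rule: the 12 highest and 12 lowest called genes with no overlap between the lines that were detected on all 3 arrays of the higher line, up to 4 called members per direction of each list, and a set of NF-κB, virus-related, cell death and B cell genes whatever their value. The members and the 32 gene lists were chosen with earlier results of these data known. Other normalizations, filters, array sets and probe rules, listed with the results below, were run as alternatives. The number of arrays limits the precision: the median standard error was 0.18 on the log2 scale.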

Additional observations from a re-analysis of the deposited data

How the results depend on the processing

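The scaling between arrays mattered most. With median centring 3075 genes were called, 813 of them lower in DG75, and without normalization between arrays 2598 were called, 688 of them lower, against 4163 and 1949 with quantile normalization. Without normalization between arrays, 2336 genes were called between the TPCK-treated lines, against 4111. Leaving out 1 untreated array at a time gave 3532 to 3761 calls, 1856 to 2002 higher and 1667 to 1759 lower. The fit of only the 6 untreated arrays gave 4898 calls, array weights gave 5310, and leaving out arrays 7 and 10 of treated DG75 gave 4818. Of 211 named genes called, 174 kept the call under all 17 alternatives and 37 lost it under at least 1. With the mean of all kept probes in place of 1 probe, ZMAT3 gave -0.21 (adjusted p = 0.53), against 0.32, and RPL34 gave -0.49 (adjusted p = 0.00146), against 0.42. The medians of 14 of 32 lists changed sign under at least 1 alternative. No paired analysis was possible because the columns of the raw signal table carry array numbers and no replicate numbers. Signal over background limits 690 genes undetected in DG75 and 777 undetected in Raji, of which 392 and 407 were called and have only a bound in that line.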

Other observations

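Runs of at least 3 neighbouring tested genes called in the same direction and past 2-fold were found at 28 places, a list made after the values were seen. On chromosome 11, HBG1, HBG2, HBE1, OR51B4 and OR51B5, the fetal and embryonic globin genes and the olfactory receptor genes beside them, were all lower in DG75, with a median of -3.85, and were also called lower with Bay-11 and with TPCK. On chromosome 1, SLAMF1 lay in a run with CD84, CD48 and SLAMF7 of the same receptor family, all lower in DG75 (median -2.03), and SLC45A3, NUCKS1 and RAB29 formed another (median -3.28). On chromosome 16, CCL22 lay beside CX3CL1 and CCL17, all 3 chemokines lower in DG75 (median -1.90). On chromosome 17, ADAP2, RNF135 and DPRXP4 were higher in DG75 (median 2.60).

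Of genes called different, 19 had a second probe called in the opposite direction. CUX1 gave -1.37 with the probe that stood for it and 1.5 with another, and BCCIP gave -0.87 and 1.48, both chosen after their values were seen. Of 3457 kept probes without a symbol, 404 were called higher and 403 lower in DG75.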
